A study of Mus musculus with 20 samples.

Results

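The 9 genes described here carry the prolactin and growth hormone signal of the pancreatic beta cell, from receptor to transcription factor, together with genes known to respond to it. They are Prlr and Ghr (the receptors), Jak2 (the kinase bound to both receptors), Stat5a and Stat5b (the transcription factors it activates), Cish and Socs2 (feedback inhibitors) and Tph1 and Tph2 (the enzymes that start serotonin synthesis). They were chosen by symbol, not by measured value, and each was found once among the 26305 entries with a gene name in the deposited table of 27179 entries. RNA was measured in beta cells of male mice aged 6 to 8 months on standard chow, in 20 libraries, 5 for each of 4 genotypes. IKO mice carry floxed Foxo1 alleles, HKO mice floxed Hnf4a alleles and DKO mice the floxed alleles of both, each recombined by RIP-Cre, a Cre recombinase driven by an insulin promoter, and WT mice are labelled wild type. Foxo1 and Hnf4a encode transcription factors whose networks the study set against each other. Cells were sorted from islets by a tomato reporter at the ROSA26 locus that the same Cre switches on. The control alleles of the WT mice, the number of animals per library and the RIP-Cre line's other transgene sequences are not stated in the sources used here.

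Prolactin, placental lactogen and growth hormone bind cytokine receptors that have no kinase of their own. Ligand binding activates JAK2, which phosphorylates STAT5A and STAT5B, and these enter the nucleus and switch on genes with the letters TTCNNNGAA. CISH and SOCS2 are among the first of those genes, and their proteins dampen the receptors in turn. In rodents the beta cells expand in pregnancy under lactogens, and Tph1, and in part Tph2, is strongly induced there, so that islets make serotonin. FOXO1 and HNF4A have recognition letters of their own, GTAAACA and CAAAGTCCA.

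Promoter sequence is shown for 2 of the 9 genes, Cish and Prlr, because their RefSeq windows alone held one of these motifs. Windows on GRCm38.p6 ran from 250 bases before to 50 bases after an annotated start, and 8 of the 9 genes had at least 1. Among all 32851 windows, searched on both strands, TTCNNNGAA was found in 8.30%, GTAAACA in 3.65% and CAAAGTCCA in 0.475%. Cish held TTCNNNGAA at the first base after its start and again at base 12. The second of the 3 Prlr windows held it 110 bases before the start and held GTAAACA, on the reverse strand, 215 bases before. In the sequences, printed 5′ to 3′ on the plus strand, capitals mark these matches.
Cish, chr9:107296539-107296688: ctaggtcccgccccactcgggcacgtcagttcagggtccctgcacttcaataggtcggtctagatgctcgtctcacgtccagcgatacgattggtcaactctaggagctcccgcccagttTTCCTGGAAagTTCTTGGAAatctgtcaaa
Prlr, chr15:10223676-10223825: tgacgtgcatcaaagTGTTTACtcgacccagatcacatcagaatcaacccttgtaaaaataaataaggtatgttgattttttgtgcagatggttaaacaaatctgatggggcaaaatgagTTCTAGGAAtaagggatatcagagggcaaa
A match is a run of letters only, and binding was not measured here.

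Reads recovered over the entries of the deposited table came to 22.6 to 34.7 M per library (median 27.8 M). All 10 beta cell markers were above 0.5 FPKM (fragments scaled to gene length and sequencing depth). Foxo1 stood at 6.64 ± 1.48 FPKM in WT and 5.97 ± 1.84 in HKO, against 1.11 ± 0.46 in IKO and 1.40 ± 0.263 in DKO (SD, n = 5 each), and pooled Foxo1 loss gave it a log2 fold change of -1.91 (adjusted p = 4.82e-06, limma). Hnf4a stood at 5.56 ± 0.86, 5.39 ± 1.02, 3.82 ± 0.355 and 3.99 ± 0.341 FPKM in WT, IKO, HKO and DKO, and its lower level in the libraries with Hnf4a loss did not pass (log2 -0.41, adjusted p = 0.142, limma). These levels are read over the whole gene and do not show how much of the floxed part was lost. In every genotype replicates 1 and 2 were close to each other, as were replicates 4 and 5. The labels give no reason, so these pairs were treated as correlated, and p-values speak for the spread of these libraries alone, a spread that may be technical. Each close pair, and replicate 3 by itself, is called a library set. Summed acinar cell markers, 19 genes, were 63.7 to 280 FPKM in WT and 48.4 to 247 in IKO, against 416 to 1470 in HKO and 189 to 1470 in DKO. In bulk RNA, fewer cells expressing a gene and less RNA per cell cannot be told apart.

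Receptors, Jak2, the STAT5 genes and the feedback inhibitors were read in all 20 libraries, and none of them passed the test for a difference with loss of Foxo1, of Hnf4a or of both. In FPKM, which is scaled by gene length, the WT order was Ghr, Prlr, Stat5b, Cish, Jak2, Socs2, Stat5a, Tph2 and Tph1. Ghr was above 82.4% of the 12455 genes tested, Prlr above 68.9%, Stat5b above 64.1%, Cish above 58.0%, Jak2 above 51.5%, Socs2 above 38.8% and Stat5a above 34.7%. The WT libraries of neighbours in that order overlapped for Ghr and Prlr, Prlr and Stat5b, Stat5b and Cish, and Socs2 and Stat5a, and were separate for the other neighbours. The mouse genes of the hormones themselves were at or near 0 in WT. Gh, the growth hormone gene, averaged 0.00885 FPKM, and Prl, the prolactin gene, was listed at 0 in all 5 WT libraries. Hormone sequence carried by a transgene was not looked for.

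**Figure D1:**
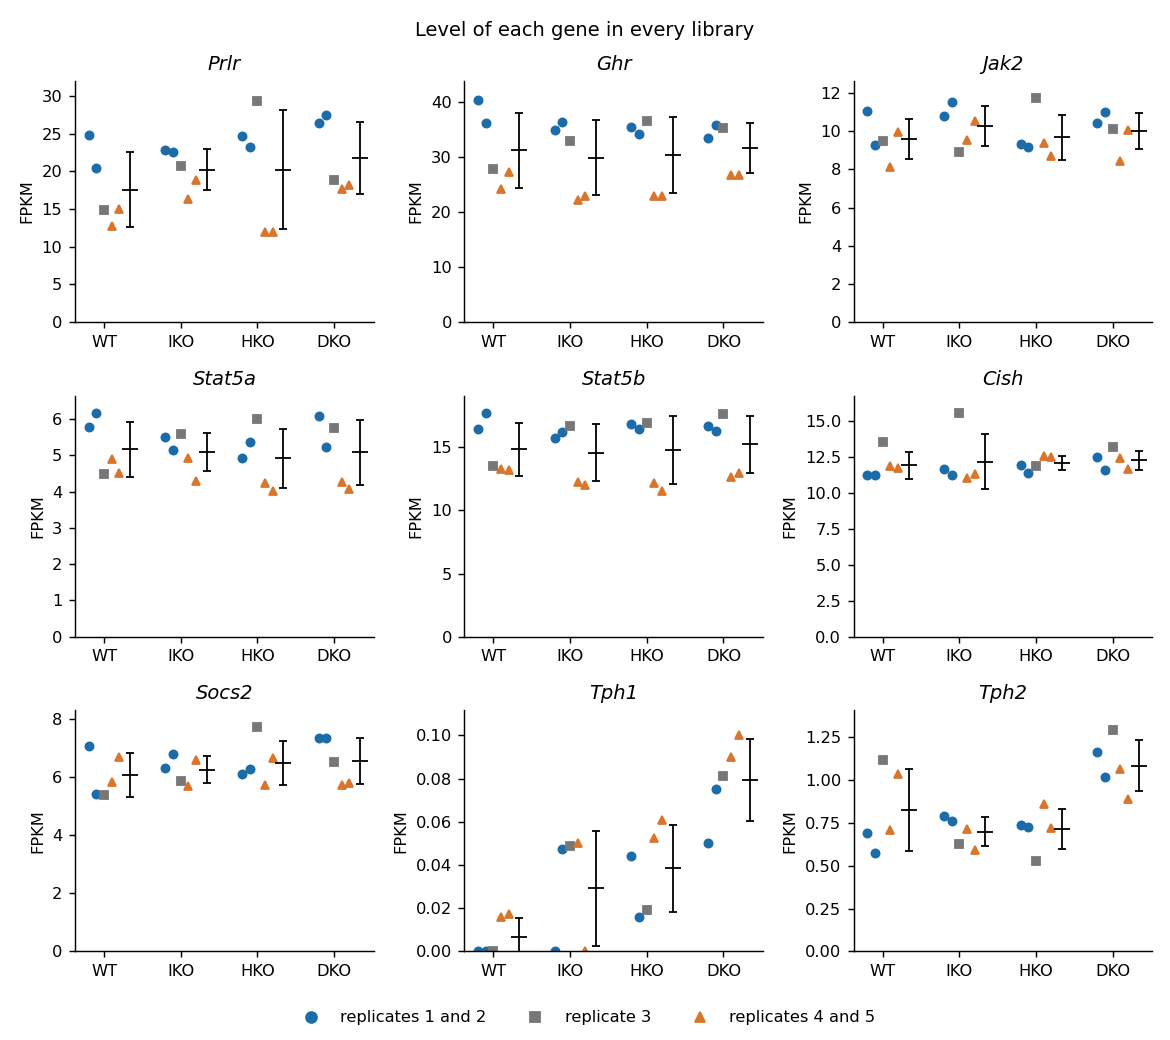
FPKM of each of the 9 genes in all 20 libraries, by genotype, with the replicate numbers as colours and shapes; black bars are the mean and SD of 5 libraries, and each vertical axis starts at 0. Genotypes overlap throughout for the receptors, Jak2, the STAT5 genes, Cish and Socs2, while Tph1 stays at or below 0.1 FPKM.

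Over the whole table, limma passed 1 gene in IKO against WT (0.00803% of those tested), 26 in HKO against WT (0.209%), 42 in DKO against WT (0.337%), 1 in DKO against HKO (0.00803%), 26 in DKO against IKO (0.209%) and 0 in the interaction (0.00%). With the genotypes pooled by factor, 1 gene passed for Foxo1 loss (0.00803%) and 94 for Hnf4a loss (0.755%). Of the 9 genes, 8 had a mean of at least 0.5 FPKM and were tested, all but Tph1, and 0 of the 8 passed in any of these 8 comparisons at an adjusted p below 0.05. A share of 0 among 8 genes is near those backgrounds. Of the 8, Tph2 alone reached an unadjusted p below 0.05, in DKO against HKO (1.04% of all genes), DKO against IKO (4.30%) and the interaction (1.36%). In the other 5 comparisons that share of all genes was 1.08% (IKO against WT), 3.10% (HKO against WT), 3.56% (DKO against WT), 0.658% (Foxo1 loss) and 5.19% (Hnf4a loss). limma's voom on the recovered reads also passed 0 of the 8. With the library set as a term in the fit, 203 genes passed for Hnf4a loss in place of 94, and again 0 of the 8 passed in any comparison, the smallest adjusted p being 0.539 for Tph2 in DKO against IKO (limma). Tested over all genes, the smallest adjusted p that any of the followed differences reached under any alternative was 0.112.

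**Figure D2:**
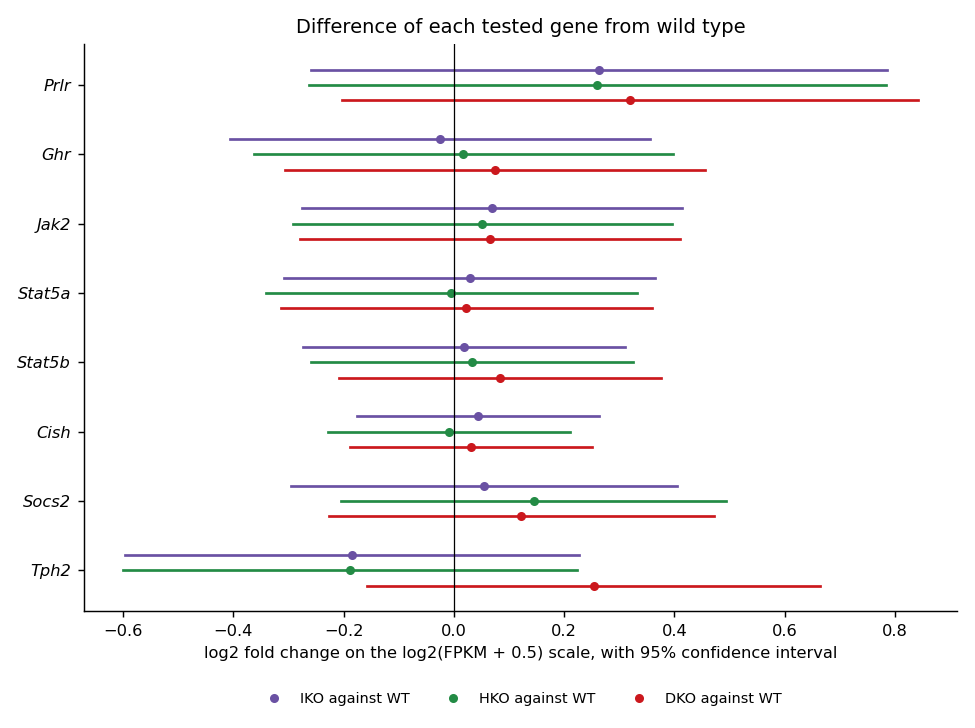
Log2 fold change from WT of the 8 tested genes in IKO, HKO and DKO, on the log2(FPKM + 0.5) scale; dots are limma estimates and lines their 95% confidence intervals. Every interval crosses 0, the narrowest belonging to Cish and the widest to Prlr.

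Prlr, the receptor for prolactin and placental lactogens, spread widely among the libraries of each genotype, and its mean was higher in each mutant genotype than in WT by less than that spread. Its level in WT replicates 1 to 5 was 24.9, 20.4, 14.8, 12.7 and 15.0 FPKM. In IKO it was 22.9, 22.6, 20.7, 16.3 and 18.9 FPKM, in HKO 24.7, 23.2, 29.3, 12.0 and 12.0 FPKM, and in DKO 26.4, 27.4, 18.9, 17.7 and 18.2 FPKM. Replicates 1 and 2 were high and replicates 4 and 5 low in every genotype, and all genotypes overlapped. The mean was 17.6 ± 4.97 FPKM in WT, and 20.3 ± 2.74, 20.2 ± 7.87 and 21.7 ± 4.76 FPKM in IKO, HKO and DKO (SD, n = 5). The log2 fold change was 0.26 in IKO (95% confidence interval -0.26 to 0.79), 0.26 in HKO (-0.26 to 0.78) and 0.32 in DKO (-0.20 to 0.84), each with an adjusted p of 0.9999 in limma. Within library sets, the log2 difference of DKO from WT was 0.251 in replicates 1 and 2, 0.339 in replicate 3 and 0.368 in replicates 4 and 5. That of IKO from WT was 0.0122, 0.464 and 0.333 in the same order, and that of HKO from WT 0.0862, 0.959 and -0.198. DKO and IKO were thus above WT in each set and HKO in all but the last, and with the library set as a term the adjusted p for DKO was 0.853 (limma). HKO replicates 4 and 5, that last set, were among the 3 libraries highest in acinar markers. Without those 3, the adjusted p for Prlr in HKO against WT was 0.600 (limma). The part of acinar cells in the Prlr level was not tested. The gene lies at chr15:10177238-10349180 on the plus strand (GENCODE M21 on GRCm38, the build named mm10 in the submitters' notes) and shares exon bases with Gm21973 on the same strand, so reads of the pair could have been split.

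Ghr, the growth hormone receptor gene at chr15:3317760-3583492 on the minus strand, was the highest of the 9. Its level in WT replicates 1 to 5 was 40.4, 36.3, 27.9, 24.2 and 27.2 FPKM. It ranged from 22.1 to 36.3 FPKM in IKO, from 22.9 to 36.6 in HKO and from 26.7 to 35.8 in DKO, so all genotypes overlapped. Log2 fold changes from WT were -0.025 in IKO (95% confidence interval -0.41 to 0.36), 0.017 in HKO (-0.36 to 0.40) and 0.075 in DKO (-0.31 to 0.46). The ratio of Ghr to Prlr, in FPKM within a library, was 1.63 to 1.90 in WT, 1.22 to 1.61 in IKO, 1.25 to 1.91 in HKO and 1.27 to 1.86 in DKO. The WT and IKO ranges of this ratio did not overlap; the ratio was looked at after the values were seen, and its difference was not tested.

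Jak2, the kinase that both receptors use, lies at chr19:29251828-29313080 on the plus strand and varied little. It averaged 9.58 ± 1.05 FPKM in WT, and 10.3 ± 1.04, 9.67 ± 1.18 and 10 ± 0.969 FPKM in IKO, HKO and DKO (SD, n = 5), and the genotypes overlapped. Its log2 fold changes from WT were 0.069, 0.052 and 0.065 in IKO, HKO and DKO, each with an SE of 0.17.

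Stat5b was the more abundant of the STAT5 pair in every library. Stat5b lies at chr11:100780731-100850724 on the minus strand and Stat5a beside it at chr11:100859351-100885169 on the plus strand. Stat5b averaged 14.8 ± 2.11 FPKM in WT, and 14.6 ± 2.27, 14.8 ± 2.68 and 15.2 ± 2.27 FPKM in IKO, HKO and DKO. Stat5a averaged 5.17 ± 0.765, 5.10 ± 0.528, 4.92 ± 0.817 and 5.08 ± 0.897 FPKM in that order (SD, n = 5). The ratio of Stat5b to Stat5a was 2.94 ± 0.202 over the 20 libraries and lay between 2.47 and 3.42. Log2 fold changes from WT lay between 0.018 and 0.083 with an SE of 0.14 for Stat5b and between -0.0047 and 0.029 with an SE of 0.16 for Stat5a. Both values carry a doubt from counting. The pair is nearly identical over much of its coding sequence, and the end of Stat5a shares exon bases with Stat3 on the opposite strand, a gene at 127 ± 6.06 FPKM in WT. The sources used here do not say whether reads were counted by strand.

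Cish, the early STAT5 target whose promoter is printed above, had the narrowest confidence intervals of the 8 tested genes. Its WT replicates 1 to 5 stood at 11.3, 11.2, 13.5, 11.8 and 11.7 FPKM, and HKO replicates at 12.0, 11.4, 11.9, 12.6 and 12.5 FPKM. The IKO replicates stood at 11.7, 11.2, 15.5, 11.1 and 11.3 FPKM and the DKO replicates at 12.5, 11.6, 13.2, 12.4 and 11.7 FPKM. Apart from a high replicate 3 in WT, IKO and DKO, the values of all genotypes lay within a narrow band and overlapped. The log2 fold change was 0.043 in IKO (95% confidence interval -0.18 to 0.26), -0.0083 in HKO (-0.23 to 0.21) and 0.030 in DKO (-0.19 to 0.25). Cish lies at chr9:107296026-107302784 on the plus strand and shares exon bases with Gm17040 and Gm17041 on the opposite strand.

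Socs2, the other feedback inhibitor and a known brake on growth hormone signalling in the mouse, lies at chr10:95385362-95417180 on the minus strand. It averaged 6.09 ± 0.761 FPKM in WT, and 6.27 ± 0.465, 6.50 ± 0.757 and 6.56 ± 0.792 FPKM in IKO, HKO and DKO (SD, n = 5), with overlap of all genotypes. Its log2 fold change was 0.054 in IKO, 0.14 in HKO (95% confidence interval -0.21 to 0.49) and 0.12 in DKO (-0.23 to 0.47).

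Tph1, which encodes the serotonin-forming enzyme of peripheral tissues and of islets in pregnancy, was barely detected. It lies at chr7:46644641-46672537 on the minus strand. The WT libraries held 0, 0, 0, 1 and 1 reads of Tph1 in replicates 1 to 5, and the IKO libraries 0, 3, 3, 3 and 0. The HKO libraries held 3, 1, 1, 3 and 3 reads and the DKO libraries 3, 4, 6, 5 and 5. Every DKO library was thus above every WT library, at a level of at most 0.1 FPKM. The sums were 2 of 148.2 M reads in WT, 9 of 135.2 M in IKO, 11 of 134.6 M in HKO and 23 of 135.6 M in DKO. Per library read, DKO held 12.6 times the WT level with an exact 95% interval of 3.11 to 110 that covers counting error only. HKO held 6.06 times the WT level (1.32 to 56.2) and IKO 4.93 times (1.02 to 46.9). Each ratio rests on the same 2 WT reads. A library without a read allows up to 3 reads, which is 0.0864 to 0.133 reads per M across the libraries.

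These reads were too few for a call. With no filter on low values, limma gave DKO against WT an adjusted p of 0.275 over all genes. An exact two-sided permutation of the means of the 12 library sets, 6 against 6, gave p = 0.0173 for Hnf4a loss and p = 0.0455 for Foxo1 loss, or 0.312 and 0.409 after adjustment over the 18 exact tests run, the smallest possible p being 0.00216. This permutation held neither the library set nor the state of the other gene fixed. The DKO sets count on the side of loss in both tests, so the 2 p-values are not separate results. Of the 12455 genes in the fit, 1.61% were higher in every DKO library than in every WT library. Those genes average at least 0.5 FPKM and do not include Tph1. The share among genes as low as Tph1 was not counted. Summed acinar markers were 313, 301, 1471, 190 and 189 FPKM in DKO replicates 1 to 5, against at most 280 FPKM in WT. DKO replicate 3, at 1471 FPKM, held 6 Tph1 reads, the most of any library. DKO replicates 4 and 5, within the WT range of these markers, held 5 each, and HKO replicates 4 and 5, at 1445 and 1471 FPKM, held 3 each. The part of acinar cells in the Tph1 reads was not tested.

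Tph2, the form of the enzyme known from neurons, stood higher than Tph1 in every library and was highest in DKO, but did not pass the test. It lies at chr10:115078641-115185022 on the minus strand. Replicates 1 to 5 stood at 0.689, 0.573, 1.12, 0.709 and 1.04 FPKM in WT and at 0.792, 0.764, 0.629, 0.713 and 0.594 FPKM in IKO. They stood at 0.736, 0.728, 0.529, 0.863 and 0.719 FPKM in HKO and at 1.16, 1.02, 1.29, 1.07 and 0.889 FPKM in DKO. All 5 DKO libraries lay above all IKO and all HKO libraries, while WT overlapped every genotype. A separation in this direction was seen for 0.610% of all genes in DKO against HKO and for 1.52% in DKO against IKO. The log2 fold change was 0.44 (SE 0.20, adjusted p = 0.9999) in DKO against HKO and 0.44 (SE 0.20, adjusted p = 0.9996) in DKO against IKO, both in limma. The interaction, which asks whether Foxo1 loss acts differently where Hnf4a is also lost, was 0.63 (SE 0.28, adjusted p = 0.9999, limma).

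**Figure D3:**
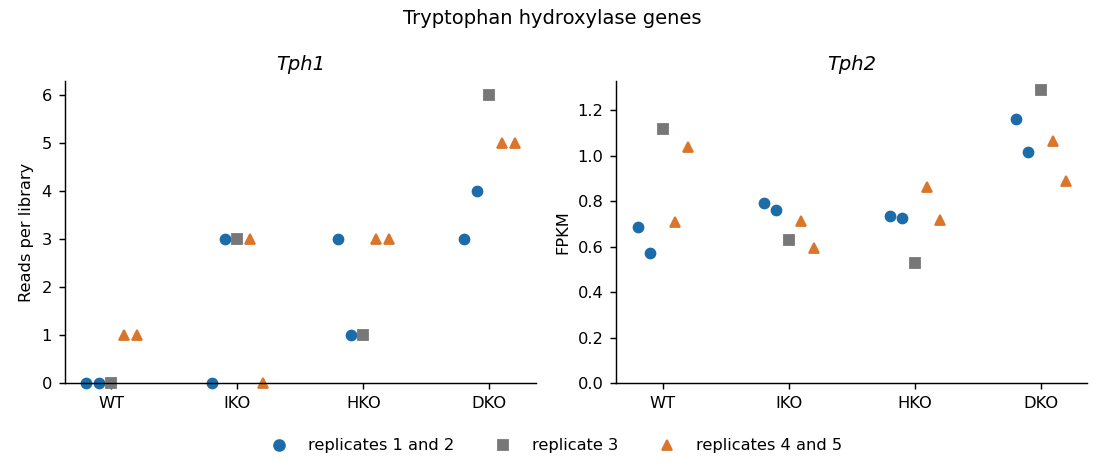
Reads of Tph1 per library (left) and FPKM of Tph2 per library (right), by genotype, with replicate numbers as colours and shapes; both axes start at 0. Tph1 runs from 0 to 1 read in WT and from 3 to 6 in DKO, and the DKO libraries of Tph2, from 0.889 to 1.29 FPKM, lie above those of IKO and HKO.

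Both receptors and Stat5b differed between the library sets in every genotype. Prlr stood at 20.4 to 27.4 FPKM in the 8 libraries numbered 1 and 2 and at 12.0 to 18.9 FPKM in the 8 numbered 4 and 5. Ghr stood at 33.6 to 40.4 against 22.1 to 27.2 FPKM, and Stat5b at 15.7 to 17.7 against 11.5 to 13.3 FPKM. For these 3 genes the sets did not overlap, which held in this direction for 11.4% of all genes tested, and the other 5 tested genes overlapped. Within each genotype, however, Stat5a too was higher in replicates 1 and 2 than in replicates 4 and 5. By genotype the ratio of replicates 1 and 2 to replicates 4 and 5 was 1.29 to 2.0 for Prlr, 1.30 to 1.58 for Ghr, 1.28 to 1.40 for Stat5b and 0.93 to 1.02 for Cish. This ratio was 1.16 to 1.36 for Stat5a, 1.02 to 1.16 for Jak2, 0.998 to 1.27 for Socs2 and 0.722 to 1.19 for Tph2. The mean log2 level of the 10 beta cell markers was 9.85 to 10.1 in replicates 1 and 2 against 9.38 to 9.78 in replicates 4 and 5. Their summed level, mostly insulin transcripts, went the other way in each genotype, 285000 to 342000 against 333000 to 388000 FPKM. The mean log2 level of the 6 delta and PP cell markers was 4.83 to 5.32 against 5.04 to 6.17. The mean log2 level of the 19 acinar markers was 2.44 to 3.53 against 0.662 to 4.88. The part of these cell types in the receptor levels was not tested.

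**Figure D4:**
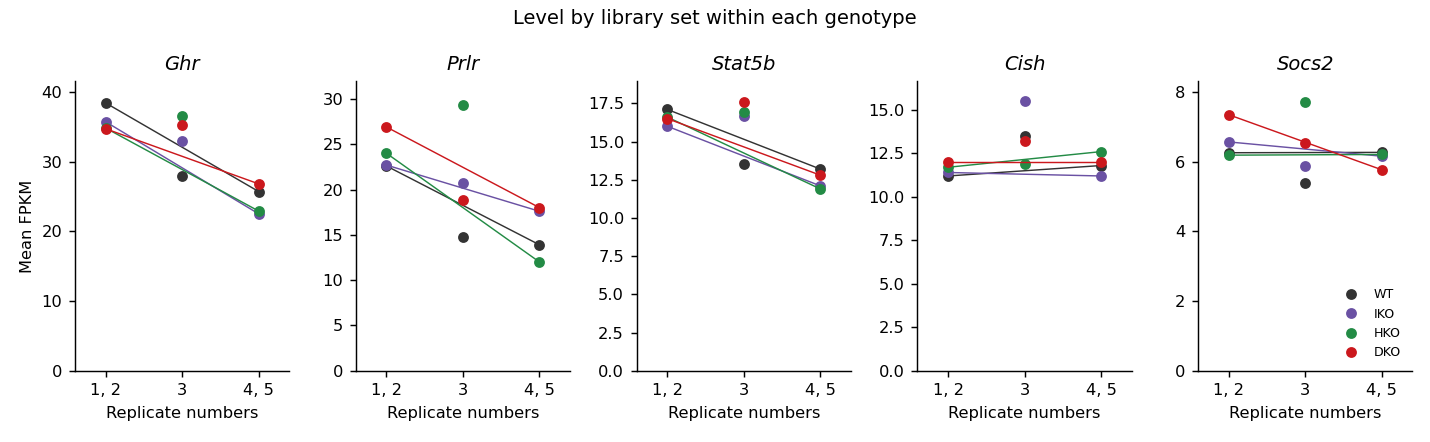
Mean FPKM of Ghr, Prlr, Stat5b, Cish and Socs2 in replicates 1 and 2, in replicate 3 and in replicates 4 and 5, with 1 colour per genotype; lines join the outer sets and every axis starts at 0. Ghr, Prlr and Stat5b fall from the first to the last set in all 4 genotypes, and Cish stays between 11.2 and 12.6 FPKM in those sets.

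In 6 relations over the 12 library sets, target genes were set against receptors or against each other. Socs2 went with Prlr at a Pearson r of 0.656 (permutation p = 0.0188, adjusted 0.113 over the 6) and a Spearman rho of 0.622 (permutation p = 0.0347, adjusted 0.146). Without the 2 sets farthest from the median of Prlr the r was 0.633, on deviations from genotype means 0.628 and on deviations from library-set means 0.654. Ghr and Socs2 gave an r of 0.469 (permutation p = 0.127), and Prlr and Cish an r of -0.194 (permutation p = 0.553). Cish with Socs2 gave -0.346, Tph1 with Cish 0.26 and Prlr with Tph1 -0.0472, and no relation passed after adjustment. The last of these was -0.758 on deviations from genotype means and 0.227 on deviations from library-set means. Relations with Tph1 rest on 0 to 6 reads per library.

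Over the same 12 library sets, the genes among 11490 whose profile was most like that of each signalling gene were listed as a description. Senp8 (r = 0.971) and Hspa4l (0.964) were most like Prlr, and Tmed8 and Papss2 (0.985 each) most like Ghr. Eps15 (0.968) was most like Jak2, Cux2 (0.983) and Smarcc2 (0.980) most like Stat5a, and Tmem231 (0.980) and Zbtb14 (0.975) most like Stat5b. Pcbp3 (0.848) and Gm4013 (0.810) were most like Cish, and Lnpk1 (0.946) and Decr2 (0.943) most like Socs2. These values include the shared differences between library sets, and of these 7 genes Cish had the lowest likeness.

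The pathway around these genes was followed through 9 lists of 128 genes, of which 88 were tested, and 1 of them passed, in 1 comparison. In the IGF axis downstream of growth hormone (8 of 12 tested), Igfbp7, a secreted protein that binds insulin-like growth factors, fell with Hnf4a loss. Its level in replicates 1 to 5 was 31.9, 31.1, 33.4, 30.7 and 30.7 FPKM in WT and 32.4, 33.2, 31.8, 23.8 and 21.2 FPKM in IKO. It was 23.9, 23.3, 15.2, 21.1 and 19.7 FPKM in HKO and 20.8, 18.9, 27.4, 19.4 and 19.4 FPKM in DKO. HKO and DKO lay below all WT libraries, a separation seen for 1.45 and 1.76% of all genes, and IKO replicates 4 and 5 reached into their range. Its log2 fold change with pooled Hnf4a loss was -0.53 (SE 0.11, adjusted p = 0.0177, limma), a comparison in which 0.530% of all genes fell.

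HKO against WT gave Igfbp7 a log2 fold change of -0.69 with an adjusted p of 0.0796. With close pairs averaged, the pooled value was -0.54 with an adjusted p of 0.193, and without the 3 libraries highest in acinar markers (HKO replicates 4 and 5, DKO replicate 3) it was -0.62 and passed. Summed endothelial markers (5 of 8 genes under 0.5 FPKM) were 5.21 to 13.7 FPKM in WT, 6.58 to 7.97 in IKO, 4.73 to 6.19 in HKO and 5.43 to 16.2 in DKO. Their part in the Igfbp7 level was not tested. The median log2 fold change of the IGF list with pooled Hnf4a loss was -0.15, beside 0.016 over all genes tested. The pooled value averages unlike parts. The list median was -0.288 in HKO against WT and 0.0852 in DKO against IKO, beside 0.0279 and 0.008 over all genes tested.

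No gene of the other lists passed. Among other JAKs and STATs (7 of 8 tested) the highest in WT were Stat3 at 127 ± 6.06 FPKM and Jak1, the kinase of the interleukin-6 receptor family, at 37.1 ± 4.42 FPKM. Among other brakes (15 of 15 tested) they were Socs3, which inhibits JAKs, at 45.4 ± 12.0 FPKM and Ptpn1, a tyrosine phosphatase, at 33.1 ± 4.55 FPKM. Among adaptors and kinases beside JAK2 (12 of 14 tested) they were Shc1 at 105 ± 3.15 FPKM and Ptpn11, the SHP2 phosphatase gene, at 53.0 ± 3.29 FPKM. Among other cytokine receptors (14 of 22 tested) they were Csf2ra at 32.0 ± 4.31 and Il3ra at 28.6 ± 5.89 FPKM. Pooled Hnf4a loss gave these 4 lists median log2 fold changes of -0.0048, 0.039, 0.035 and -0.013, and pooled Foxo1 loss 0.062, 0.063, 0.044 and 0.040. Over all genes tested the medians were 0.0164 with pooled Hnf4a loss and 0.0155 with pooled Foxo1 loss. In IKO against WT the 4 list medians were -0.029, -0.0026, 0.022 and 0.052, and in DKO against HKO 0.153, 0.092, 0.075 and 0.043.

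Downstream, other lactogen-responsive islet genes (15 of 20 tested) were led by Ccnd2, a cyclin needed for beta cell growth in the mouse, at 107 ± 14.6 FPKM in WT and 111 ± 14.7 in DKO. General STAT5 target genes (9 of 10 tested) were led by Id2 at 56.7 ± 12.0 FPKM and Bcl2l1, a survival gene, at 42.0 ± 5.68 FPKM in WT. The serotonin list (8 of 22 tested) was led by Gch1 at 204 ± 6.89 FPKM and Qdpr at 98.5 ± 3.37 FPKM, which make and regenerate the tetrahydrobiopterin that tryptophan hydroxylases need. Median log2 fold changes of these 3 lists with pooled Hnf4a loss were -0.00086, 0.050 and -0.049. Treating all 5 libraries as independent, Ifngr1 (log2 -0.22, adjusted p = 0.00937), Irs2 (-0.30, 0.00348) and Spr (-0.31, 0.00164) also passed in limma with pooled Hnf4a loss, where 1.64% of all genes then fell, and they are named here for that after their values were seen. In the fit that treats close pairs as correlated their adjusted p was 0.366, 0.197 and 0.117.

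**Figure D5:**
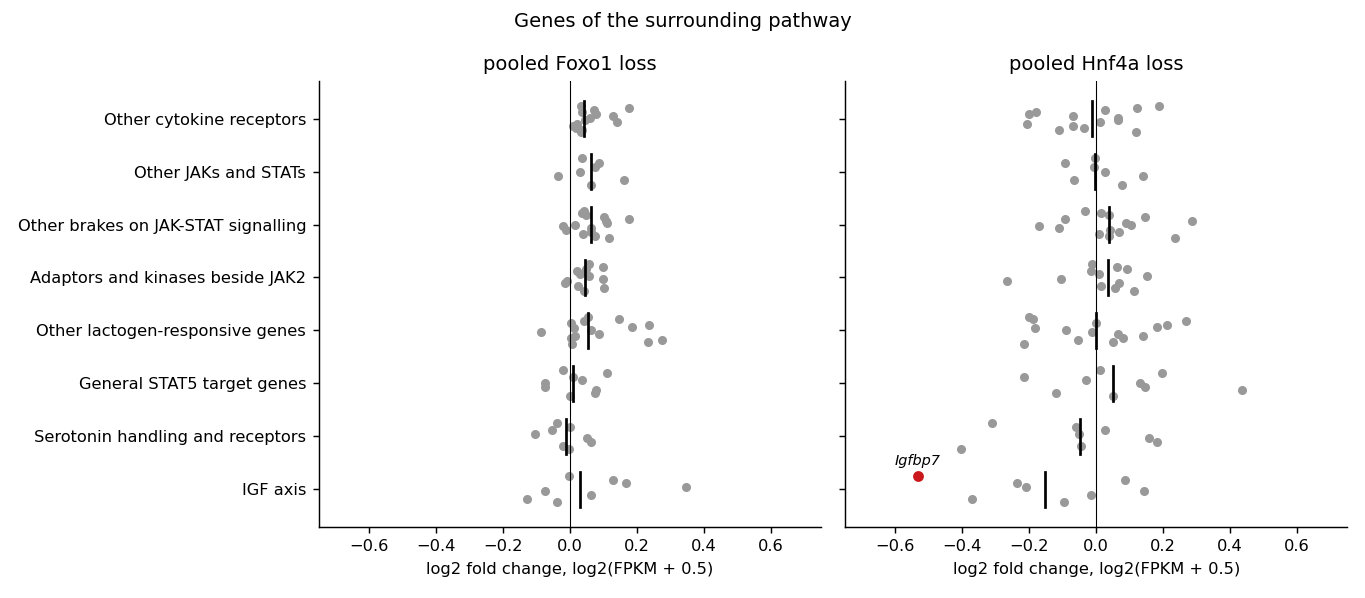
Log2 fold change of every tested gene of 8 pathway lists with pooled Foxo1 loss (left) and pooled Hnf4a loss (right), on the log2(FPKM + 0.5) scale; each dot is 1 gene, vertical bars are list medians and red marks an adjusted p below 0.05. Igfbp7 at -0.53 is the 1 gene that passed.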

How the data were processed

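Sorted mouse beta cells gave 20 RNA libraries, 5 per genotype, grouped by their titles. A single FPKM table was deposited by the authors, with 0 columns of other samples. Libraries kept strand, were made from poly-A RNA and were read from both ends, per the labels' protocols. The submitters' processing notes name mm10, DESeq2 1.14.1, STAR 2.5.2b, Subread 1.5.2 and featureCounts, without roles. The sources used here state neither the annotation nor whether reads were counted by strand. Rows named NA (847) or by a date (27) were left out of the tests.

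Whole reads were recovered from the steps of the FPKM values (tolerance 0.02 reads) for 21006 of 21006 entries above 0, or 100%, and their sums gave the depths. Reads assigned to no entry are not in these sums. Median chi-square of reads over sampling noise was 1.44 to 3.08 for the 8 close pairs (replicates 1 and 2, 4 and 5) and 6.05 to 21.5 for the 32 others. The 12455 genes averaging 0.5 FPKM or more were fitted with limma 3.58.1 in R 4.3.3 on log2(FPKM + 0.5), which understates changes of low genes. The fit used eBayes with trend and duplicateCorrelation over close pairs (0.81), with Benjamini-Hochberg adjustment over all genes and a call at an adjusted p below 0.05. It weights library sets about equally, so its fold changes differ slightly from those of the means. Foxo1 loss was pooled over both Hnf4a states, and the reverse. Levels are means with SD over 5 libraries. Exact and permutation tests (100000 resamples for relations) used SciPy 1.17.1. The statistics were tested on simulated data. On the recovered reads, limma's voom called 29 genes in HKO against WT and 48 in DKO against WT.

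The genes and lists were chosen with earlier results of these data known. Named were all 9 genes, each list's genes that passed, otherwise its 2 highest in WT, and for each gene with a mean of at least 1 FPKM the 2 most alike; 2 genes that this rule names are not reported here.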

Additional observations from a re-analysis of the deposited data

Results flagged for a closer look

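Of the 36 combinations of a gene and a genotype, 3 had a library far from the other 4 by Dixon's gap ratio. Chance alone flags about 1 in 20 groups of independent libraries. That rate does not hold here, since replicate 3 alone has no close partner, and all 3 flags fell on it. Jak2 in HKO was highest in replicate 3, at 11.7 FPKM against 8.71 to 9.39 FPKM in the others. Cish was highest in replicate 3 of WT, at 13.5 FPKM, and in replicate 3 of IKO, at 15.5 FPKM. Cish in replicate 3 was also the highest of DKO, at 13.2 FPKM, and stood at 11.9 FPKM in HKO.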

How the results depend on the processing

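None of the 8 tested genes passed in any of the 8 comparisons under any alternative that kept it; Tph2 fell under the 2 FPKM minimum, and Tph1, tested only with no filter, did not pass. The number of genes passing overall did move. Treating the 5 libraries as independent gave 3 (IKO against WT), 98 (HKO against WT), 150 (DKO against WT), 138 (DKO against IKO), 1 (interaction), 2 (pooled Foxo1 loss) and 324 (pooled Hnf4a loss). Averaging close pairs gave 0, 5 and 17 against WT in the same order, 0 in DKO against HKO, 15 in DKO against IKO and 46 for pooled Hnf4a loss. The replicate block gave 45 (HKO against WT), 43 (DKO against IKO) and 168 (pooled Hnf4a loss), and changed no call among the 8 tested genes. The rule for pairing by number, every correlation over 0.1, was not met: deviations of same-numbered libraries correlated at 0.37 to 0.499 (replicate 4), 0.285 to 0.454 (replicate 5), 0.108 to 0.35 (replicate 2), 0.081 to 0.48 (replicate 1) and -0.386 to 0.254 (replicate 3). Of 20 libraries, 9 correlated best with their own number and 16 within their own library set, a hint from the data and not the design. A library set term gave 73 and 84 (HKO and DKO against WT), 66 (DKO against IKO) and 203 (pooled Hnf4a loss). A pseudocount of 0.1 gave 0 in DKO against HKO. No filter gave 65 (DKO against WT) and 41 (DKO against IKO). Leaving out the 3 acinar-high libraries, an alternative added after seeing the data, gave 2 for pooled Foxo1 loss. Leaving out 1 library gave 15 to 28 in HKO against WT (lowest without HKO replicate 3, and 17 without WT replicate 1, 3, 4 or 5), 21 to 51 in DKO against IKO (highest without IKO replicate 3), 1 to 2 in IKO against WT and 0 to 1 in DKO against HKO (both moved without HKO replicate 3). The cause was not tested.

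Of 400 fold changes under other alternatives, 19 changed sign (8 tested genes: all comparisons for Prlr and Tph2, those against WT for the others), and none of them had an adjusted p under 0.87 in limma. Log2 fold changes in IKO against WT became -0.0139 (Stat5a) and -0.0276 (Stat5b) with independent libraries, and Stat5b -0.0106 with equal medians and -0.0065 with quantile normalization. In HKO against WT, Ghr became -0.0418, Stat5b -0.0126 and Cish 0.0201 with independent libraries, Ghr -0.0107 with equal medians and -0.00137 with quantile normalization, and Stat5a 0.00765 with pairs averaged and 0.126 without the acinar-high libraries. In DKO against WT, Stat5a became -0.0272 with independent libraries, -0.0203 with equal medians, -0.0326 with quantile normalization and -0.0487 without the acinar-high libraries. Cish became -0.0119 with equal medians and -0.00905 without those libraries, where Stat5b became -0.00121 and Prlr in DKO against HKO -0.255.

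Leaving out 1 library changed 27 of 680 signs. The ranges in IKO against WT were -0.0948 to 0.114 (Cish), -0.091 to 0.0109 (Ghr), -0.00665 to 0.113 (Socs2), -0.0398 to 0.0638 (Stat5a) and -0.0613 to 0.0417 (Stat5b). In HKO against WT they were -0.0174 to 0.0619 (Cish), -0.0972 to 0.0536 (Ghr), -0.0549 to 0.0948 (Jak2), -0.114 to 0.0171 (Stat5a) and -0.0474 to 0.0572 (Stat5b). In DKO against WT they were -0.00969 to 0.101 (Cish), -0.048 to 0.0504 (Stat5a) and -0.00077 to 0.107 (Stat5b), and -0.265 to 0.0363 for Prlr in the interaction. Igfbp7 passed with pooled Hnf4a loss in 31 of 32 alternatives (log2 -0.62 to -0.45). The Tph1 values rest on at most 6 reads per library, and depth limits them.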
